A study of Mus musculus with 6 samples.

Results

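The 10 genes described here encode proteins that coat the lipid droplet, fuse droplets, or release and restrain its triglyceride lipase. They were taken by symbol from the deposited expression table, Plin2, Plin3, Plin4, Plin5, Cidea, Cideb, Cidec, Pnpla2, Pnpla3 and G0s2, and are 10 of its 20673 genes. RNA was sequenced from the livers of 6 C57BL/6J mice, 3 kept on a regular diet (RD) and 3 given a high-cholesterol diet (HCD) for 3 days, with 1 library per liver. The HCD also contained cocoa butter and the bile salt sodium cholate, so that cholesterol, fat and cholate cannot be told apart. Neither group had been operated on or infected. The study used mice of both sexes, and no label or text used here gives the sex or exact age of each liver. Sex-linked RNA, described below, marked HCD replicate 1 as female and the other livers as male.

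A lipid droplet is a store of triglyceride and cholesteryl ester enclosed by a single phospholipid layer. Perilipins on that layer limit the access of lipases, CIDE proteins bring droplets into contact and let the smaller pass its lipid to the larger, and the patatin-like lipase PNPLA2 (ATGL) cuts the first fatty acid from triglyceride, a step that G0S2 blocks. In hepatocytes droplets buffer fatty acids and supply lipid to secreted lipoproteins, and several coat genes are known targets of the fatty acid receptor PPAR alpha.

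None of the 8 droplet genes with enough counts to test passed the test for a difference between the diets. At an adjusted p under 0.05 (edgeR's quasi-likelihood test, adjusted by Benjamini-Hochberg over 13105 genes), 0 were higher and 0 lower with HCD, where 3.27% of all genes tested were called (1.95% higher and 1.32% lower). Also 0 of the 8 had an unadjusted p under 0.05, against 20.9% of all genes tested, and DESeq2 called 0 of the 9 members to which it gave an adjusted p, against 6.97% of all genes. Log2 fold changes of HCD over RD were above 0 for 3 members and below 0 for 5. Their median was -0.13 and the median of their size without sign 0.23, beside 0.0074 and 0.31 over all genes tested. The intervals given with each gene show which differences 3 livers per diet could not show, and for Plin4, Cidec and G0s2 these were wide. Since whole liver was sequenced, fewer cells of a type and less RNA per cell cannot be told apart.

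The 250 bases before the RefSeq start of 4 members are shown because Plin2 had the highest level of the 10 and the other 3 the largest differences among the tested members. Plin5 and Cideb had the largest above 0, and G0s2 the largest below 0. RefSeq promoters on GRCm38.p6 were matched by symbol to 9 of the 10 members, in 11 windows, and not to Cidea. The windows shown lie on the minus strand at chr4:86670060-86670309 (Plin2), chr17:56117549-56117798 (the farther upstream of a pair of windows of Plin5), chr14:55758425-55758674 (Cideb) and chr1:193273189-193273438 (G0s2). They are written 5′ to 3′ along the gene, and capitals mark a match, on either strand, to a nuclear receptor half-site, a TATA box, an E-box or a GC box, whose letters are given with their matches after the sequences.
Plin2: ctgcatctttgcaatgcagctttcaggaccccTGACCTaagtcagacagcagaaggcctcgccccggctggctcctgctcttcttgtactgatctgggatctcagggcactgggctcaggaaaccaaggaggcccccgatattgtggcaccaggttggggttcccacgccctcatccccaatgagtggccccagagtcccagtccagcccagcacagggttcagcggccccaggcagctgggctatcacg
Plin5: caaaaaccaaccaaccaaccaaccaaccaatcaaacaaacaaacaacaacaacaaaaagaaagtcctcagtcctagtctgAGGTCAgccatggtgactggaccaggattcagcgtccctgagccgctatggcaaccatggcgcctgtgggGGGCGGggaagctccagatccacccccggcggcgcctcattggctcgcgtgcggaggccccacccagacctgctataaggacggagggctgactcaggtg
Cideb: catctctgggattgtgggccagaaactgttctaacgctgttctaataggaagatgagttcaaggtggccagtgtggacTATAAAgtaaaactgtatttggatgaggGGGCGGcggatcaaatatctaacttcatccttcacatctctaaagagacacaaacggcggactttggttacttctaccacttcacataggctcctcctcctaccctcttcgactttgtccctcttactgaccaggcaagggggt
G0s2: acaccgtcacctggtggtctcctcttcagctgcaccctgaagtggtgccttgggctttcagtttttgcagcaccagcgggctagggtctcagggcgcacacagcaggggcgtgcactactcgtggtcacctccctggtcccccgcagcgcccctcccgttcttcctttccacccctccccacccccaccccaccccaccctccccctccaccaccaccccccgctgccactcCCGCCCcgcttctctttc

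The Plin2 window held the half-site on the opposite strand, 218 to 213 bases before the start, and the Plin5 window held it on the gene's own strand, 170 to 165 bases before the start. These were the 2 of the 11 member windows with AGGTCA, which 14.0% of 32851 RefSeq windows of the same length hold. The exact letters TATAAA, searched for as the TATA box, stood in the Cideb window alone, 172 to 167 bases before the start, and 12.4% of all windows have them. Near matches, such as TATAAG in the Plin5 window, were not counted. The GC box, GGGCGG, was found in 7 of the 11, including that of G0s2, 18 to 13 bases before its start, against 32.7% of all windows. Neither the E-box, CACGTG (6.02% of all windows) nor the direct repeat that PPAR alpha and RXR bind, the half-site repeated after 1 base and so itself holding it (0.0335% of all windows), had a match in any of the 11. A match of letters is a description and does not show binding.

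Levels of the 10 members were compared with each other only as FPKM, which the authors scaled to the length of each gene and to a total per liver that is not stated and was 0.590 to 0.726 of a library's summed counts. Plin2 led with 172 ± 7.0 FPKM (SD, n = 3) with RD and 205 ± 32.1 with HCD, followed by G0s2 with 81.2 ± 70.5 and 50.2 ± 21.9, and Cideb with 46.0 ± 2.14 and 60.9 ± 14.0. Plin5 (30.1 ± 9.66 and 41.1 ± 4.45 FPKM), Pnpla2 (35.1 ± 2.55 and 32.6 ± 3.84) and Plin3 (17.6 ± 2.32 and 16.2 ± 1.04) came next. The last 4 were near or below 1 FPKM, namely Cidec with 1.33 ± 0.295 and 1.14 ± 0.0940, Plin4 with 0.871 ± 0.377 and 0.807 ± 0.766, Pnpla3 with 0.808 ± 0.727 and 0.817 ± 0.854, and Cidea with 0.0887 ± 0.0901 and 0 in every HCD liver.

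Over the mean of the 6 livers the order was Plin2, G0s2, Cideb, Plin5, Pnpla2, Plin3, Cidec, Plin4, Pnpla3 and Cidea. Neighbours whose ranges over the 6 livers did not overlap were Plin2 and G0s2 (lowest Plin2 165 FPKM, highest G0s2 162), Pnpla2 and Plin3 (29.3 against 19.4), and Plin3 and Cidec (15.0 against 1.67). All other neighbours overlapped, and Pnpla3 stood below Plin4 in only 3 of the 6 livers. Within a liver, G0s2 was above Cideb in 4 of 6, with the mean of Cideb the higher of the pair in HCD livers. Cideb was above Plin5 in 6 of 6, and Plin5 above Pnpla2 in 4 of 6. By length-scaled level, Plin2 was thus the leading coat gene, Cideb the leading CIDE gene and Pnpla2 the leading lipase gene of the 10.

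**Figure D1:**
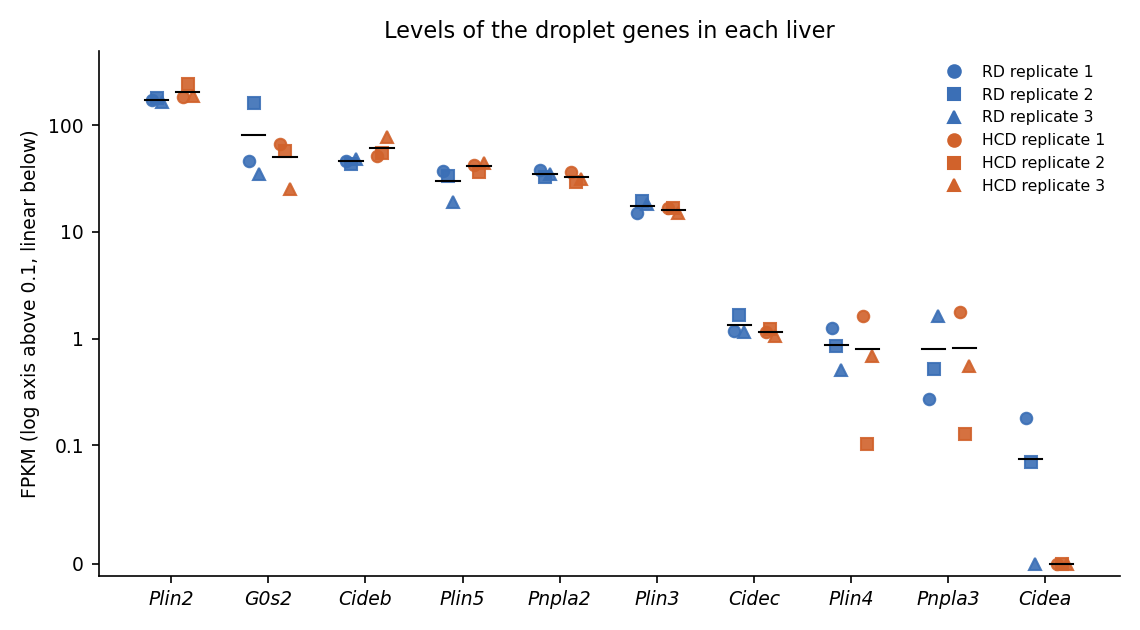
FPKM of the 10 droplet genes in each liver (y axis, log above 0.1 and linear below; x axis, genes by mean level), with RD livers in blue, HCD livers in orange and black lines at the mean of each diet. Plin2 lies between 165 and 242 FPKM and Cidea at 0 in 4 livers, and the points of the diets overlap for all genes except Plin2 and Cideb.

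Plin2, the perilipin that covers most hepatocyte droplets and is degraded when not bound to one, lies on chromosome 4 of GRCm38 from 86648386 to 86670060, minus strand. In TMM-scaled CPM, counts divided by the scaled library size so that livers can be compared, its level was 414, 437 and 387 in the RD livers and 427, 586 and 443 in the HCD livers, in the order of replicates 1 to 3 kept below. HCD replicate 2 was the highest of the 6, while HCD replicate 1 fell below RD replicate 2, so the diets overlapped. The Plin2 log2 fold change was 0.23 (standard error 0.17, 95% interval -0.15 to 0.62, edgeR adjusted p = 0.462), which is 1.18-fold, and the exact two-sided permutation test gave p = 0.2, with 0.1 the smallest p possible for 3 livers against 3. On the FPKM scale, with the authors' own totals, the lowest HCD liver (183) lay just above the highest RD liver (179), and the exact permutation p was 0.1. The log2 fold change ranged from 0.08 (without HCD replicate 2) to 0.32 when 1 liver was left out.

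Plin3, a perilipin that moves between cytosol and young droplets, lies on chromosome 17 from 56277476 to 56292873, minus strand. It had 39.0, 51.2 and 46.8 CPM in the RD livers and 41.8, 44.3 and 37.9 in the HCD livers. The diets overlapped, and the log2 fold change was -0.14 (standard error 0.15, 95% interval -0.48 to 0.19, edgeR adjusted p = 0.613). Among the coat genes this was the narrowest interval, and the estimate lay between -0.25 (without RD replicate 1) and -0.05 (without RD replicate 2) when 1 liver was left out.

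Plin5, a perilipin of oxidative tissues that ties droplets to mitochondria, occupies chromosome 17 from 56111601 to 56117596, minus strand, next to Plin4. Its CPM were 53.6, 49.2 and 26.7 with RD and 58.9, 52.2 and 62.2 with HCD. RD replicate 3 stood below the other 5 livers, and HCD replicate 2 was below RD replicate 1. The Plin5 log2 fold change was 0.42 (standard error 0.24, 95% interval -0.13 to 0.97, edgeR adjusted p = 0.361), the largest above 0 among the 8 tested members. It dropped to 0.17 without RD replicate 3, the liver with the lowest value, and was 0.61 at most with another liver left out.

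Plin4, a perilipin typical of adipose tissue and muscle, is on chromosome 17 from 56100591 to 56109803, minus strand, with 17 exonic bases shared with Hdgfl2 on the other strand. Its counts were 104, 49 and 45 in the RD livers and 123, 6 and 33 in the HCD livers, or 5.0, 3.42 and 1.95 CPM against 6.22, 0.41 and 2.67. The highest and the lowest of the 6 livers were both HCD livers. The log2 fold change of -0.13 (standard error 0.75, 95% interval -1.85 to 1.58, edgeR adjusted p = 0.940) had no stable sign, since it was 0.23 without RD replicate 1 and 0.38 without HCD replicate 2. As a ratio its interval ran from 0.277-fold to 3.00-fold, too wide to show a moderate difference.

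**Figure D2:**
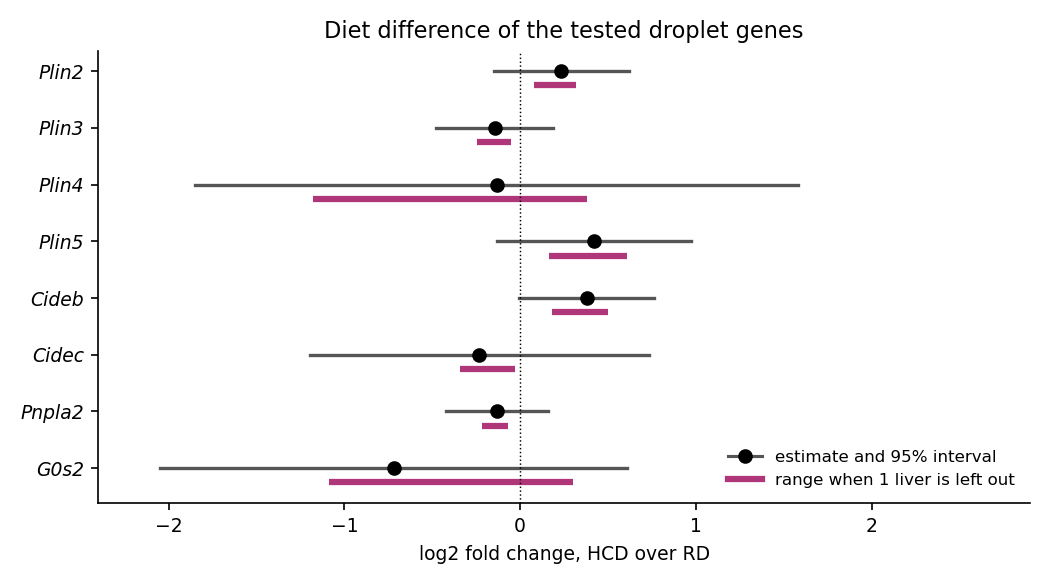
Log2 fold change of HCD over RD (x axis) of the 8 tested droplet genes, with points and grey lines for the estimate and its 95% interval and pink bars for the range over the 6 fits that each left out 1 liver. Every interval includes 0, and the pink bars of Plin4 and G0s2 cross it.

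Plin2 held most of the perilipin RNA in each of the 6 livers. Plin2 made up 76.2%, 76.8% and 81.2% of the summed FPKM of Plin2 to Plin5 in the RD livers and 75.1%, 82.0% and 75.8% in the HCD livers. The means were 78.0% ± 2.75 (SD, n = 3) and 77.6% ± 3.78, and the diets overlapped. Plin5 supplied 9.45% to 16.6% with RD and 12.3% to 17.9% with HCD, and Plin3 6.67% to 9.11% and 5.74% to 6.82%. The share of Plin4 was small and uneven, 0.249% to 0.560% with RD and 0.0351% to 0.665% with HCD. In RD replicate 3 and HCD replicate 2 the share of Plin2 was the highest of its diet and that of Plin5 the lowest.

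**Figure D3:**
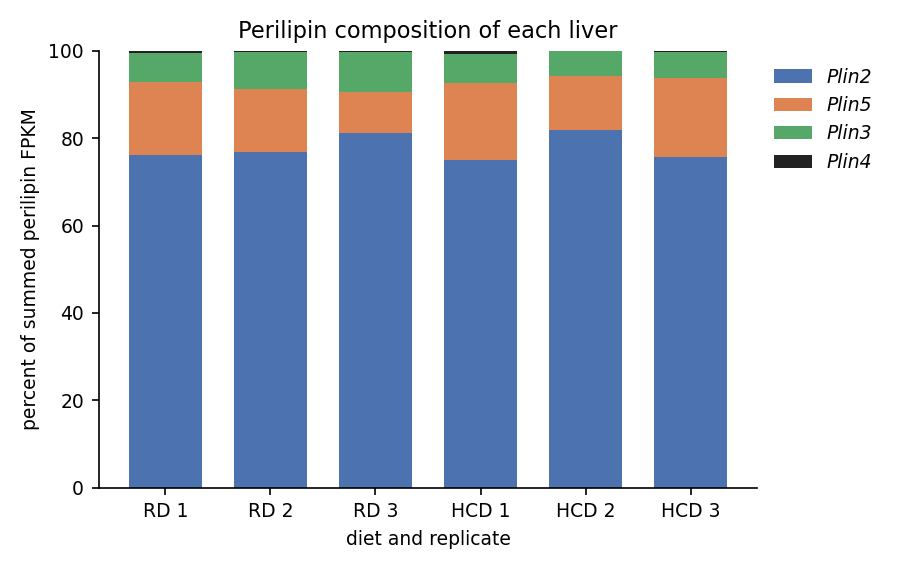
Share of each perilipin gene in the summed FPKM of Plin2, Plin3, Plin4 and Plin5 (y axis, percent) in each of the 6 livers (x axis). Plin2 holds 75.1% to 82.0% of each bar, and no share separates the diets.

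Cideb, the CIDE gene of hepatocytes, whose protein fuses droplets and loads lipid onto very-low-density lipoproteins, lies on chromosome 14 from 55754050 to 55758458, minus strand. It had 47.2, 45.4 and 47.8 CPM in the RD livers and 50.3, 56.2 and 76.4 in the HCD livers. Every HCD liver lay above every RD liver, with the RD livers within a narrow range and HCD replicate 3 well above the rest. It was the 1 tested member of 8 whose diets did not overlap, where HCD lay wholly above RD in 14.0% of all genes tested and either order held in 27.6%. The Cideb log2 fold change was 0.38 (standard error 0.17, 95% interval -0.0037 to 0.76), or 1.30-fold. Its unadjusted p was 0.0518 and its adjusted p 0.243 by edgeR, and the exact permutation p was 0.1, the smallest that 3 against 3 allows. With a correction of a trend with gene length it was 0.22 (edgeR adjusted p = 0.507). Without HCD replicate 3 the log2 fold change was 0.18, and the largest value with 1 liver left out was 0.50, without HCD replicate 1 (edgeR adjusted p = 0.140).

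Of the 1488 exonic bases of Cideb, 1136 overlap exons of Nop9 on the other strand, and no source used here says whether the counting used strand. Reads of the 2 genes may therefore not be told apart. Nop9 itself, a nucleolar RNA-binding protein gene, had 23.8, 21.4 and 17.3 CPM with RD and 20.9, 18.1 and 15.2 with HCD (log2 fold change -0.20, edgeR adjusted p = 0.566).

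Cidec, the CIDE gene of white adipose tissue, which is induced in fatty liver, sits on chromosome 6 from 113424634 to 113435760, minus strand. Its counts were low in all livers, 31, 31 and 33 with RD and 28, 23 and 16 with HCD, which are 1.49, 2.16 and 1.43 CPM against 1.42, 1.59 and 1.30. The diets overlapped, and the log2 fold change of -0.23 (standard error 0.42, 95% interval -1.20 to 0.73, edgeR adjusted p = 0.792) did not pass the test and was -0.03 without RD replicate 2. Cidea, the CIDE gene of brown fat, on chromosome 18, had 3, 1 and 0 counts in the RD livers and 0 in all 3 HCD livers. In the livers with 0 counts, the level could still reach 0.130 CPM (RD replicate 3) to 0.215 CPM (HCD replicate 3), taken as 3 counts of the total (counting error only). Both diets were thus at or under what the depth could show, and Cidea failed the filter on low counts. With no filter its log2 fold change was -3.45 (edgeR adjusted p = 0.526). Cideb thus made up 96.1% to 97.7% of the summed CIDE FPKM with RD and 97.8% to 98.7% with HCD, a share that was computed with the values known and not tested.

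Pnpla2, the gene of adipose triglyceride lipase, occupies chromosome 7 from 141455198 to 141460743, plus strand. It had 78.4, 68.8 and 70.3 CPM in the RD livers and 73.6, 61.1 and 63.9 in the HCD livers. HCD replicate 1 lay among the RD livers, and the other HCD livers were below all of them. The Pnpla2 log2 fold change was -0.13 (standard error 0.13, 95% interval -0.42 to 0.16, edgeR adjusted p = 0.597), and its interval, from 0.746-fold to 1.12-fold, was the narrowest of the 8 on the log2 scale. It was -0.07 without RD replicate 1 and -0.22 without HCD replicate 1, the ends of its range with 1 liver left out. The spread of Pnpla2 between livers of 1 diet, 0.12 on the log2 scale, was the lowest of the 8 tested members, beside a median of 0.28 over all genes tested.

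Pnpla3, a lipase-like gene whose protein sits on droplets and is induced by feeding and SREBP-1c, lies on chromosome 15 from 84167837 to 84187236, plus strand, with 105 exonic bases shared with Gm49513. Its counts were 6, 8 and 39 in the RD livers and 36, 2 and 7 in the HCD livers, or 0.29, 0.56 and 1.69 CPM against 1.82, 0.14 and 0.57. One liver of each diet was high and the other two low, and Pnpla3 failed the filter on low counts. With no filter its log2 fold change was -0.0020 (edgeR adjusted p = 0.999).

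G0s2, the inhibitor of PNPLA2, is on chromosome 1 from 193272161 to 193273217, minus strand, within the span of Lamb3 on the other strand but without shared exonic bases. It had 27.8, 98.6 and 20.3 CPM in the RD livers and 38.9, 34.8 and 14.8 in the HCD livers. RD replicate 2 was far above the other 5 livers, among which the diets overlapped. The G0s2 log2 fold change was -0.72 (standard error 0.58, 95% interval -2.05 to 0.61, edgeR adjusted p = 0.518), the largest in size among the 8 tested members, and it was 0.30 without RD replicate 2. Plin4 and G0s2 varied most between livers of 1 diet, with within-diet SDs of 1.11 and 0.99 on the log2 scale, higher than in 98.8% and 98.2% of genes tested.

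The ratio of inhibitor to lipase followed G0s2. As log2 of G0s2 over Pnpla2 in FPKM it was 0.30, 2.31 and 0.0024 in the RD livers and 0.87, 0.98 and -0.31 in the HCD livers. The means were 0.87 ± 1.26 (SD, n = 3) and 0.51 ± 0.72, and the diets overlapped. Log2 of Plin5 over Pnpla2, a coat protein against the lipase it restrains, was -0.014, 0.049 and -0.86 with RD and 0.21, 0.31 and 0.50 with HCD. Each HCD liver had more Plin5 than Pnpla2 FPKM and lay above each RD liver, but this ratio was chosen with the values known and was not tested.

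**Figure D4:**
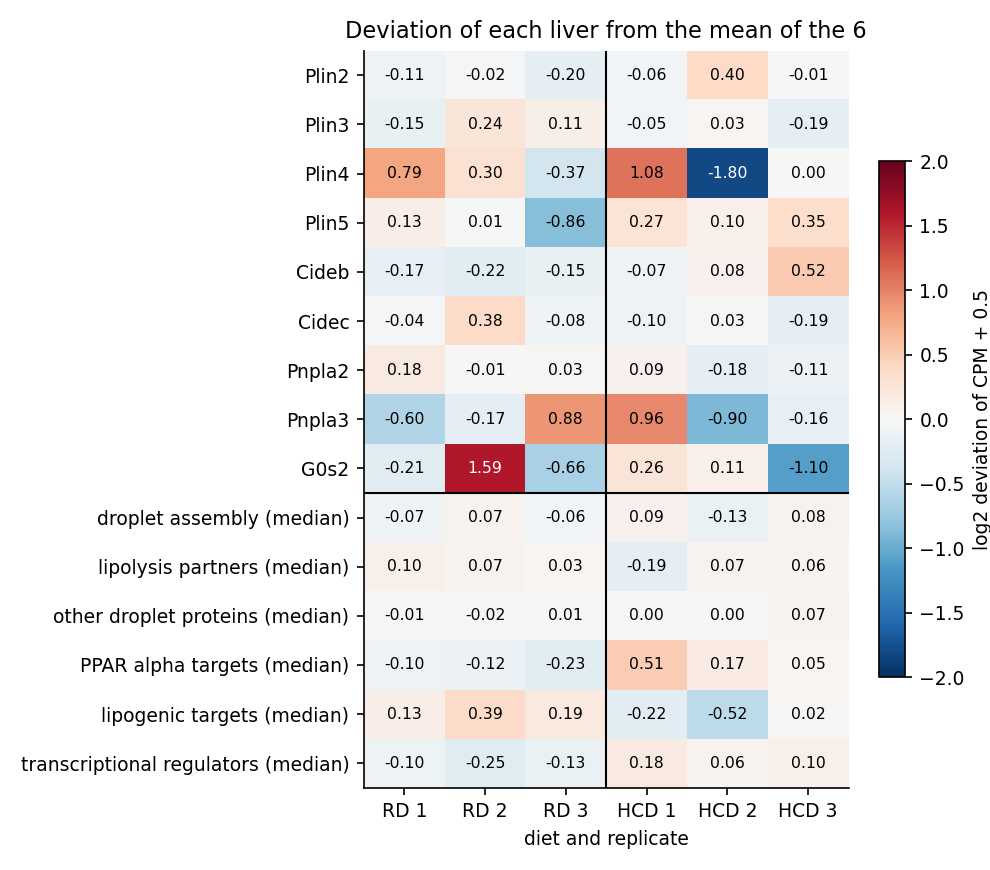
Log2 deviation of CPM plus 0.5 of each liver (x axis) from the mean of the 6 livers for 9 droplet genes and, below the line, for the median gene of 6 related lists, from blue (lower) to red (higher). The largest deviations are those of Plin4 in HCD replicate 2 (-1.80) and G0s2 in RD replicate 2 (1.59).

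The members did not vary together, as the plot of deviations by liver shows. HCD replicate 2 was the highest liver for Plin2 and the lowest for Plin4, Pnpla2 and Pnpla3. HCD replicate 3 was the highest for Plin5 and Cideb and the lowest for Plin3, Cidec and G0s2. By the smallest root mean square distance of log2 deviations over the 6 livers, among 9116 tested genes whose mean was 5 CPM or more, the genes most like Plin2 were Hdac5 (distance 0.0525), Atg4d (0.0530) and Slc25a37 (0.0580), beside a median distance of 0.310. Their log2 fold changes were 0.22, 0.23 and 0.35, and none of these 3 passed the test (edgeR adjusted p = 0.421, 0.399 and 0.278).

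HCD replicate 1 stood apart. It had 5032 counts of Xist, the RNA of the inactive X chromosome, where the other 5 livers had 0, and 0 counts of 4 Y-linked genes that were present in the others. By these transcripts HCD replicate 1 was female and the other 5 livers male, among them all RD livers. Sex was thus not balanced between the diets. Elovl3, a fatty acid elongase that male livers express more, had 1.82 CPM in HCD replicate 1 and 281 to 551 in the other livers. Without this library again 0 of the 8 members were called. Their log2 fold changes without it were 0.32 for Plin2, -0.15 for Plin3, -1.18 for Plin4, 0.41 for Plin5, 0.50 for Cideb, -0.22 for Cidec, -0.22 for Pnpla2 and -0.97 for G0s2, each with the sign it had with all 6 livers. Hepatocyte markers summed to 90127 to 122807 CPM with RD and 97119 to 137204 with HCD, mostly from Alb, which had 63316 to 105649 CPM. Of these 8 markers 6 had a log2 fold change below 0, with a median of -0.25, and of the 8 edgeR called 0 and DESeq2 1, higher. Serpina1a and Hnf4a were lower in every HCD than in every RD liver, and Ttr was higher (log2 fold change 0.59), the 1 marker of the list with an unadjusted edgeR p under 0.05. Such a lack of overlap, in either order, was seen in 27.6% of all genes tested. Adipocyte markers, which matter here because fat cells express many of the same genes, summed to 16.5 to 21.1 CPM with RD and 18.7 in each HCD liver over the 5 of 8 markers in the tables, of which Adipoq and Cfd had at most 3 counts in any liver. Of the brown adipocyte list, 4 of 6 were in the tables and 0 of the 2 tested were called by either tool or had an unadjusted p under 0.05, with a sum of 283 to 552 CPM against 6.67 to 382, made up mainly of Elovl3. Of the skeletal muscle list only Mylpf was in the tables, at 0.56 to 0.87 CPM against 0.49 to 1.31, and it was not called.

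Of the markers of other liver cells, edgeR called 1, and the summed levels of the diets overlapped for each list. All 8 macrophage markers had a log2 fold change above 0, with a median of 0.91 and sums of 117 to 194 CPM with RD and 162 to 365 with HCD, and 1 of them was called by edgeR (Cd68, higher), 4 had an unadjusted p under 0.05 and 3 were called higher by DESeq2. The call of Cd68 was kept in 1 of 6 fits with a liver left out, that without HCD replicate 2, with log2 fold changes of 1.15 to 1.36 over the 6. Stellate cell markers summed to 204 to 262 CPM against 204 to 353, with 6 of 8 above 0, 0 called by either tool, and 1 higher and 1 lower at an unadjusted edgeR p under 0.05. Endothelial markers summed to 133 to 224 against 175 to 262, with 6 of 8 above 0, 0 called by edgeR, 1 higher at an unadjusted p under 0.05 and 1 called higher by DESeq2. The part of these cells in the droplet gene values was not tested.

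Genes that work beside the members were read from 6 lists. Within a list, levels were ranked by mean TMM-scaled CPM over the livers, which is not scaled to gene length. Over the list of droplet assembly, 0 of 10 genes were called in either direction. Its genes of highest mean CPM were Dgat2, which makes triglyceride, with 454 ± 19.9 CPM (SD, n = 3) in RD and 445 ± 69.6 in HCD livers (log2 fold change -0.03, edgeR adjusted p = 0.940), and Bscl2, the seipin gene that shapes budding droplets. Bscl2 had 53.1, 46.6 and 47.7 CPM with RD and 62.6, 74.4 and 66.3 with HCD, with no overlap, where HCD lay wholly above RD in 14.0% of all genes tested. Its log2 fold change was 0.46 (standard error 0.13, edgeR adjusted p = 0.0911). At an unadjusted p under 0.05 the list had 1 gene higher, Bscl2, and 1 lower, Fitm2, and DESeq2 called 0. The median of the list was -0.02.

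Of the 12 lipolysis partners edgeR called 1 higher and 0 lower, and DESeq2 1 higher and 2 lower, with a median of -0.05. The edgeR call was Ces1d, a carboxylesterase of the endoplasmic reticulum that mobilizes stored triglyceride for lipoprotein secretion, and the gene of highest mean CPM in the list. Ces1d had 596, 649 and 473 CPM with RD and 1381, 1259 and 854 with HCD, each HCD liver above each RD liver. Its log2 fold change was 1.02 (standard error 0.22, edgeR adjusted p = 0.0473), but it was called in only 1 of the 6 fits with a liver left out, that without HCD replicate 3, with an adjusted p of 0.0735 without HCD replicate 1. The Ces1 genes are close copies, and no source used here says how reads shared between copies were counted. Aadac, the next by mean CPM and also a lipase of the endoplasmic reticulum, had a log2 fold change of 0.11 (edgeR adjusted p = 0.746). At an unadjusted edgeR p under 0.05 the list had 1 gene higher, Ces1d, and 2 lower, Abhd5 and Ldah, which are named here with their values known and are the 2 that DESeq2 called lower. Abhd5, the coactivator of PNPLA2, had 43.1, 35.2 and 27.0 CPM with RD and 18.7, 22.3 and 12.9 with HCD, each HCD liver below each RD liver. Its log2 fold change was -0.97 (standard error 0.24, edgeR adjusted p = 0.0681). Ldah, a droplet-associated hydrolase, had 59.5, 68.6 and 61.2 CPM against 35.3, 51.7 and 40.1, again without overlap, and a log2 fold change of -0.58 (standard error 0.16, edgeR adjusted p = 0.0995). Diets without overlap, in either order, were seen in 27.6% of all genes tested.

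Of 12 other droplet proteins tested, 2 were called higher and 1 lower, with a median of 0.03. Hsd17b11, a droplet-bound hydroxysteroid dehydrogenase, had 148, 142 and 117 CPM with RD and 444, 545 and 381 with HCD. The diets were far apart, at a log2 fold change of 1.75 (standard error 0.18, edgeR adjusted p = 0.00480), and the call held in 6 of 6 fits with a liver left out. Nsdhl, an enzyme of cholesterol synthesis that is found on droplets and the endoplasmic reticulum, had 97.4, 64.2 and 78.2 CPM with RD and 11.3, 8.41 and 17.7 with HCD. It fell by 2.69 on the log2 scale (standard error 0.28, edgeR adjusted p = 0.00496), again in 6 of 6 such fits. Hsd17b13, the hepatocyte paralogue of Hsd17b11, had 302, 317 and 364 CPM with RD and 634, 494 and 570 with HCD. The call of Hsd17b13, at a log2 fold change of 0.79 (edgeR adjusted p = 0.0400), was kept in 1 of 6 fits with a liver left out, that without HCD replicate 2, and had an adjusted p of 0.0573 without HCD replicate 1. Mettl7b, the gene of highest mean CPM in the list, had a log2 fold change of 0.29 (edgeR adjusted p = 0.417).

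**Figure D5:**
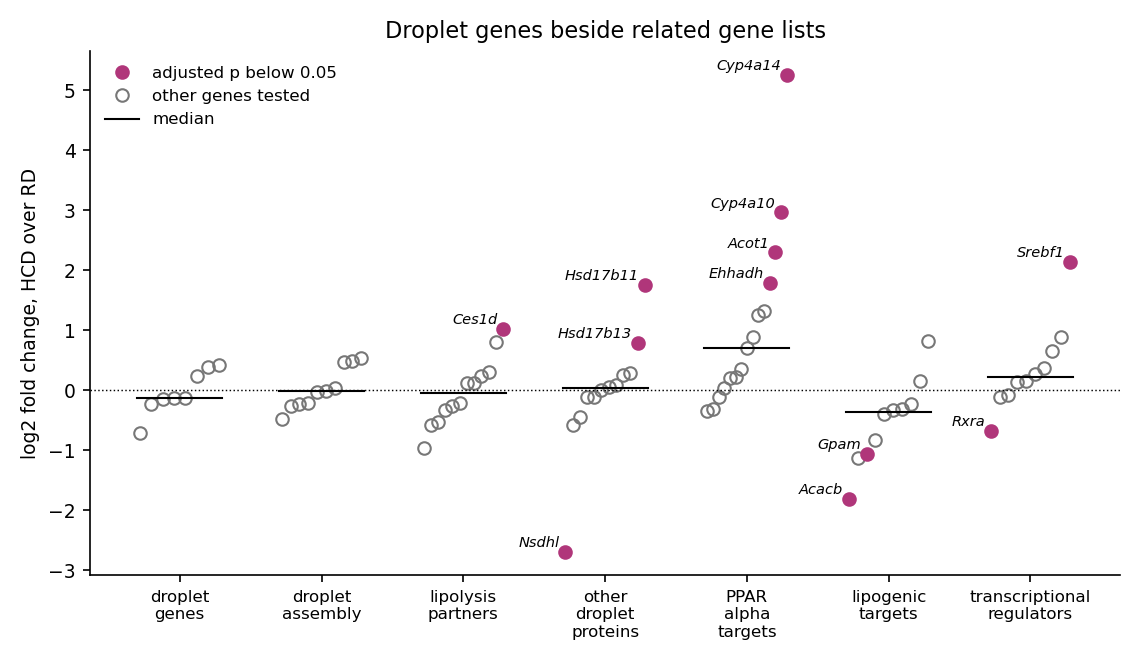
Log2 fold change of HCD over RD (y axis) of the tested droplet genes and of each tested gene in 6 related lists (x axis), with filled points for an edgeR adjusted p under 0.05 and black lines at the medians. The droplet genes and the droplet assembly list have no filled point, while 4 of 15 PPAR alpha targets lie above 0 as filled points.

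Among 15 targets of PPAR alpha, the receptor that also acts on Plin2, Plin5 and G0s2, 4 were called higher and 0 lower, with a median of 0.71. Ehhadh, of peroxisomal fatty acid oxidation, had 202, 234 and 252 CPM with RD and 861, 1038 and 480 with HCD (log2 fold change 1.79, edgeR adjusted p = 0.0184). Acot1, a cytosolic acyl-CoA thioesterase, had 14.5, 16.5 and 18.2 CPM against 107, 96.8 and 37.7 (log2 fold change 2.30, edgeR adjusted p = 0.0184). The omega-hydroxylases of fatty acids were the most uneven. Cyp4a10 had 41.1, 64.0 and 56.4 CPM with RD and 853, 174 and 231 with HCD (log2 fold change 2.96, edgeR adjusted p = 0.0343). Cyp4a14 had 5.82, 17.5 and 40.6 CPM against 2054, 202 and 201 (log2 fold change 5.26, edgeR adjusted p = 0.0474). HCD replicate 1 was the highest liver for both, and without it their log2 fold changes were 1.91 and 3.24, while 4 genes of the list were again called. Without any 1 of the 3 RD livers 0 of the list were called, and without HCD replicate 3 there were 2, Ehhadh and Acot1. Cyp4a genes and Acot1 also have close copies. That the list and the droplet genes differ was not tested.

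Of 10 lipogenic genes, 0 were called higher and 2 lower, with a median of -0.37. Acacb, the acetyl-CoA carboxylase at the mitochondrial surface, had 71.2, 88.5 and 110 CPM with RD and 23.1, 30.1 and 23.9 with HCD. It fell by 1.81 on the log2 scale (edgeR adjusted p = 0.00523), in 6 of 6 fits with a liver left out. Gpam, which starts glycerolipid synthesis, had 121, 111 and 128 CPM with RD and 49.4, 66.2 and 57.7 with HCD, and fell by 1.06 (edgeR adjusted p = 0.0130), in 3 of 6 such fits, the call being lost without RD replicate 1, RD replicate 2 or HCD replicate 3 (adjusted p up to 0.0659). Scd1 and Fasn, the genes of highest mean CPM, had log2 fold changes of 0.81 and -0.40 (edgeR adjusted p = 0.199 and 0.275).

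Of 10 regulators of these genes, 1 was called higher and 1 lower, and both were also the genes of highest mean CPM in the list. Srebf1, which encodes SREBP-1, had 231, 179 and 269 CPM in the RD livers against 824, 1020 and 1159. The log2 fold change of Srebf1 was 2.14 (standard error 0.21, edgeR adjusted p = 0.00407), and it passed the test in 6 of 6 fits with a liver left out. Rxra, the partner of PPAR alpha and LXR, had 522, 558 and 468 CPM with RD and 298, 331 and 335 with HCD. Its log2 fold change was -0.68 (edgeR adjusted p = 0.0449), and its call was kept in 0 of these 6 fits, with an adjusted p of 0.0661 without HCD replicate 1.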

How the data were processed

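RNA from 6 livers (3 RD, 3 HCD, 1 library each) was sequenced by a service company. The authors deposited raw read counts per gene and FPKM, whose library total is not stated. Their notes name STAR, HTSeq, DESeq2, edgeR and GRCm39 without versions. Lengths implied by counts and FPKM matched GENCODE M21 on GRCm38, used here for positions, for 95.1% to 95.3% of genes. Fold changes and p-values that the authors deposited were not used.

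Diets and replicates came from the sample labels. Counts (13771630 to 23129576 per library) were joined to symbols by identifier and tested in R 4.3.3 with edgeR 4.0.16 (filterByExpr by diet, TMM factors 0.886 to 1.07, quasi-likelihood F test without covariates, two-sided, threshold 0.05), tested beforehand on simulated data with 200 changed genes. Nothing says that the livers were prepared independently, so p-values measure the spread between these samples. Members and gene lists were chosen with earlier results of these data known. Named list genes are those called and the 2 of highest mean CPM in each list. Some genes that this rule names are not reported here. Genes most like the member of highest FPKM were also named. Alternatives were DESeq2 1.42.0, other scalings and filters, limma 3.58.1 on log2 FPKM, a length correction, a replicate block and each liver left out. Plin1 was not analysed here.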

Additional observations from a re-analysis of the deposited data

How the results depend on the processing

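Over 16 alternatives 0 members were called, the smallest adjusted p of any being 0.140 (Cideb, edgeR without HCD replicate 1). Of 127 member values under alternatives, 124 kept their direction and 3 changed it, all with 1 liver left out: Plin4 (range -1.18 to 0.38) became 0.23 on leaving out RD replicate 1 and 0.38 on leaving out HCD replicate 2, and G0s2 (range -1.09 to 0.30) became 0.30 on leaving out RD replicate 2.

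Counts of calls moved more. Over all genes, 428 became 992 with DESeq2, 649 with no filter, 251 with the length correction, and 39 to 387 with 1 liver left out (39 without RD replicate 1). No label says that the replicate numbers pair the livers. Deviations of same-numbered livers correlated at -0.084, 0.119 and -0.030, and not every liver correlated best with its own number. With so few livers per diet, these values cannot settle whether livers were paired. With a replicate block 136 genes were called, with 0 lipolysis partners, 1 PPAR alpha target, which was not among the 4 called without the block, and 1 regulator.

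Lipolysis partners numbered 3 with DESeq2 (1 higher, 2 lower), 0 with the length correction and 0 to 1 with 1 liver left out, and lipogenic genes 4 with DESeq2 (1 higher, 3 lower) and 1 to 2 with 1 liver left out. PPAR alpha targets numbered 0 to 4 with 1 liver left out, regulators 1 with the length correction or any liver left out, other droplet proteins 2 to 3 and droplet assembly 0. The difference of HCD minus RD in the Plin2 share was -0.43 percentage points (-2.60 to 1.15 with 1 liver left out), and that in log2 G0s2 over Pnpla2 -0.36 (-0.79 to 0.36). The causes were not tested. Counts were lowest for Cidea, Pnpla3 and Cidec, at 0 to 39 in any liver, and Plin4 and G0s2 had the widest spread between livers of 1 diet.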
